A study of Mus musculus with 10 samples.

Results

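Adrenoceptors are the G protein-coupled receptors for noradrenaline and adrenaline, and 8 of their genes were followed in whole lung: the alpha-1 receptors Adra1a, Adra1b and Adra1d, the alpha-2 receptors Adra2a, Adra2b and Adra2c, and the beta receptors Adrb1 and Adrb3. They were taken by gene name from a table of 54532 genes, and each name matched 1 gene. The mice were wild type, of the C57BL/6J strain, and were operated on at postnatal day 7 (P7). In the increased pulmonary flow (IPF) group an aortocaval fistula was punctured between the abdominal aorta and the inferior vena cava, so that blood was shunted to the right heart and the lungs, while sham mice had the same operation without the puncture. Snap-frozen whole lung was collected at P30 from 5 IPF and 5 sham mice, 1 library per mouse, and its mRNA was sequenced. The values are FPKM, fragments scaled to gene length and to library size, so that levels can be set side by side between genes of different length. The receptors were selected on their family name after the FPKM of IPF and sham samples had been compared, so the difference between the groups and the order of the receptors are given below as a description, without a p-value for any receptor.

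Receptors of the alpha-1 class couple mainly to Gq proteins, which raise calcium in the cell and contract smooth muscle of vessels and airways. Those of the alpha-2 class couple to Gi proteins, which lower cyclic AMP, and on sympathetic nerve endings they restrain the release of noradrenaline. Beta receptors couple to Gs proteins, which raise cyclic AMP, relax smooth muscle and drive the heart, and Adrb3 is best known from fat cells, where it starts lipolysis and heat production.

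The reads recovered per sample ranged from 16250190 to 19026843 in the IPF group and from 15483046 to 17818542 in the sham group, and these ranges overlapped. Other features of the libraries moved with the groups. Xist, made from the inactive X of females, was at 26.8 to 43.2 FPKM in the IPF samples and at 0.0301 to 0.0767 FPKM in the sham samples, while the Y-linked Ddx3y had no read in any IPF sample and was at 14.3 to 21.4 FPKM in the sham samples. Of 14 circadian clock genes, 13 differed (limma adjusted p under 0.05), 10 downward and 3 upward in IPF samples, and Nr1d1, a clock repressor, was at 1.03 to 4.28 FPKM against 31.0 to 42.6 FPKM. Allocation was meant to balance the sexes where it could, per the methods. Lymphocyte markers were also higher: 4 of 7 passed the same limit, with a summed level of 22.5 to 33.0 FPKM in the IPF and 11.8 to 18.2 FPKM in the sham group. The operation, the sex of the mice and the clock state cannot be told apart in these groups, and their part in the values below was not tested. Sham replicate 1 stood apart, with 25486 genes above 0 where the other samples had 22475 to 23575, and IPF replicate 5 was nearest the sham group in the summed clock genes, at 171 FPKM against 93.8 to 112 FPKM in the other IPF and 303 to 360 FPKM in the sham samples; values without both are given where they matter. In whole lung, fewer cells of a type and less RNA per cell cannot be told apart either.

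Adrb1, on chromosome 19 of GRCm38 (ENSMUSG00000035283, 56722372 to 56724862, plus strand), was the highest of the 8 in every sample. It encodes the beta-1 receptor, best known for its action on the heart. Promoter sequences of RefSeq (GRCm38.p6) were at hand for 5 of the 8 genes, in 6 windows, and 3 are shown because they belong to the receptor with the highest level, to the one with the lowest, and to the alpha-2 gene in which most motifs were found. Each runs 5′ to 3′ over the 250 bases before the start that RefSeq gives, with motif letters in capitals. The deposited gene spans start elsewhere: that of Adra2a begins inside its window, and that of Adra2c begins near the 5′ end of its window, so that nearly all of that window lies within the gene as measured.
Adrb1 (chr19:56721867-56722116, plus strand): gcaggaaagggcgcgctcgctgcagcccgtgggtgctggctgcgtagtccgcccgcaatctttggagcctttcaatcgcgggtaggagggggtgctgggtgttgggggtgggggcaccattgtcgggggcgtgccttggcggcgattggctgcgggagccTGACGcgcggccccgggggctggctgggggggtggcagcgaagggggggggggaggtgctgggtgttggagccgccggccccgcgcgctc
Adra2a (chr19:54045009-54045258, plus strand): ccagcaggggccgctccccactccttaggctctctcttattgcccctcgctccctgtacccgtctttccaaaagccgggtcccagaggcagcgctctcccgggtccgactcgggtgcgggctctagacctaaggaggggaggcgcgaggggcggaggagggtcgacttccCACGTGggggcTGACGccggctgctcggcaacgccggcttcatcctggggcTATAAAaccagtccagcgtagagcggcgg
Adra2c (chr5:35278316-35278565, plus strand): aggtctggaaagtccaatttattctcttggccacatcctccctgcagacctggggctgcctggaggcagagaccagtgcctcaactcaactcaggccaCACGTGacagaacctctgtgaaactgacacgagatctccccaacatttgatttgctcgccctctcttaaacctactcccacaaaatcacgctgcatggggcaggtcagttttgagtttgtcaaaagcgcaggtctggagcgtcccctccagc
The letters searched on both strands were CACGTG (the E-box that the clock factors Arntl and Clock bind), TGACG (the core of the cyclic AMP response element), the full element TGACGTCA, which contains that core, and the TATA box TATAAA. The E-box was found in Adra2a and Adra2c and is held by 6.02% of 32851 RefSeq windows of the same length, the core in Adrb1 and Adra2a against 17.8% of all windows, and the TATA box in Adra2a against 12.4%. None of the 6 windows held the full element, which 1.55% of all windows hold, and the windows of Adra1b and Adra2b held none of these letters. A match is a description of the letters and says nothing of a factor bound there. Adrb1 had the window richest in G and C, at 74.0%, and Adra2c lay at 53.6%, where the median of all windows is 52.4%.

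Over the 10 samples the order by mean FPKM was Adrb1, Adrb3, Adra1a, Adra1d, Adra1b, Adra2a, Adra2b and Adra2c. Adrb1 was at 33.2 FPKM, 7.92 times the 4.19 FPKM of Adrb3, and their ranges did not overlap. A second step lay between Adra1b at 1.64 FPKM and Adra2a at 0.164 FPKM, a ratio of means of 10.0, and Adra1b was the higher in all 10 samples. These were the only 2 of the 7 neighbouring pairs that all 10 samples ordered alike. Within the middle group the order was not fixed: Adrb3 exceeded Adra1a in 7 of 10 samples, Adra1a exceeded Adra1d in 5 of 10, and Adra1d exceeded Adra1b in 8 of 10. Among the alpha-2 genes Adra2a lay above Adra2b, and Adra2b above Adra2c, in 8 of 10 samples each, and these 3 genes rest on few reads.
The middle group was ordered differently in the 2 groups of mice. In the IPF group it ran Adrb3, Adra1a, Adra1d, Adra1b, with Adrb3 above Adra1a in 3 of 5 samples and Adra1a above Adra1d in 5 of 5. In the sham group it ran Adra1d, Adrb3, Adra1a, Adra1b, and Adra1d and Adrb3 were close, at 2.84 and 2.75 FPKM, with Adra1d the higher in 2 of 5 samples.

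**Figure D1:**
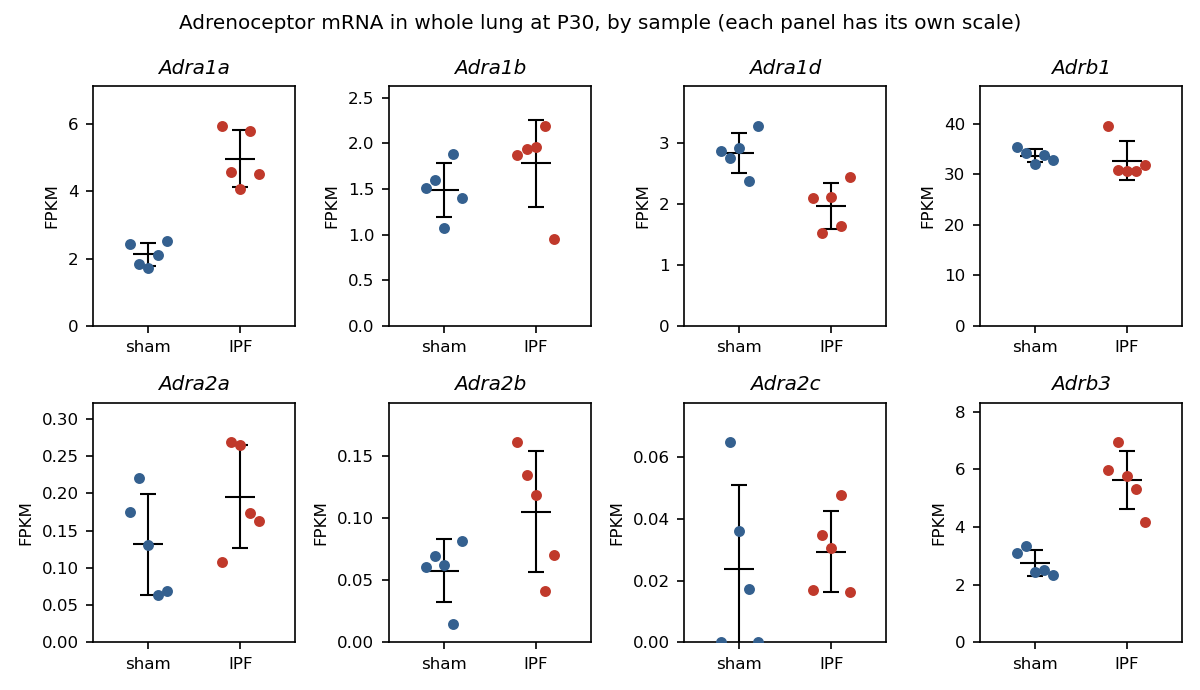
FPKM of each adrenoceptor gene (vertical axis, each panel with its own scale from 0) in the 5 sham samples (blue) and the 5 IPF samples (red), with the mean and SD in black. The groups are apart for Adra1a and Adrb3, 1 IPF sample of Adra1d reaches into the sham range, and Adrb1 lies at 30.6 to 39.6 FPKM in both groups together.

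The limma fit used log2(FPKM + 0.1) and took in the 20448 genes whose mean reached 0.1 FPKM, among them 6 of the 8 receptors; Adra2b and Adra2c lay under that level. To be called, a gene needed both a log2 fold change beyond 1 in either direction and an adjusted p below 0.05. Adra1a and Adrb3 were called, 2 of the 6 tested, both higher in the IPF group, where 1.14% of the 20448 genes tested were called, 0.68% higher and 0.46% lower. At the adjusted p limit alone Adra1d, lower in the IPF group, was added, making 3 of the 6 tested against 5.85% of the genes tested, 3.71% higher and 2.14% lower; Adra1d stayed in that count in 7 of 18 other settings and was lost in 8 of 10 fits with a single sample left out. The IPF and sham samples did not overlap for 2 of the 6 tested receptors, both above, against 7.29% of the genes tested, 4.52% above and 2.77% below. Nothing is read from these counts, since the family was put forward with this contrast in view. The median log2 fold change of the 6 tested receptors was 0.29, and that of all genes tested was 0.00. The added 0.1 makes the fold changes of low genes smaller than they are.

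Adra1a (ENSMUSG00000045875, chromosome 14 of GRCm38, 66635251 to 66771168, plus strand) encodes the alpha-1A receptor, which contracts resistance vessels. In the sham samples, replicates 1 to 5, it was at 2.43, 1.84, 1.73, 2.12 and 2.52 FPKM. In the IPF samples, replicates 1 to 5, it was at 5.94, 4.56, 4.06, 5.80 and 4.52 FPKM. Every IPF sample therefore lay above every sham sample, and the lowest IPF value was well clear of the highest sham value. The IPF and sham means were 4.98 ± 0.840 and 2.13 ± 0.346 FPKM (SD, n = 5 each), a ratio of 2.34 and a log2 fold change of 1.19 (standard error 0.14). These levels rest on 664 to 922 reads per IPF sample and 243 to 349 reads per sham sample. Over 18 other settings the log2 fold change ran from 0.93, with a pseudocount of 1, to 1.27, and it stayed above 1 in 17 of them. Without sham replicate 1 and IPF replicate 5 it was 1.27.
Of 9 smooth muscle markers 0 were higher and 1, Smtn, was lower in the IPF group at the limma limit, and their summed level was 135 to 257 FPKM in the IPF and 163 to 205 FPKM in the sham group. Markers of atrial and pulmonary vein cardiomyocytes were high in IPF replicate 4, at 172 FPKM, and in sham replicate 3, at 154 FPKM, against 18.2 to 56.2 FPKM in the other 8 samples. Adra1a was near the top of its group in the former and at the bottom of its group in the latter. Of 10 such markers 9 were tested and 0 were past the adjusted p limit (limma), and Nppa was at or near 0 in every sample.

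Adra1d (ENSMUSG00000027335, chromosome 2, 131545850 to 131562283, minus strand) encodes the alpha-1D receptor, found mainly on large arteries. The sham samples, replicates 1 to 5, were at 2.88, 2.76, 2.92, 2.37 and 3.28 FPKM. In the same order the IPF samples were at 2.10, 1.52, 2.12, 1.65 and 2.44 FPKM. IPF replicate 5 was above sham replicate 4, and the other 4 IPF samples lay below all sham samples. The IPF and sham means were 1.96 ± 0.378 and 2.84 ± 0.327 FPKM (SD, n = 5 each), giving a log2 fold change of -0.52 (standard error 0.14). These levels rest on 48 to 95 reads per sample. Over 18 other settings the log2 fold change ran from -0.60 to -0.38, the latter with a pseudocount of 1. Its 5′ end overlaps 670 bases of the antisense gene Gm14285, which held at most 4 reads in any sample.

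Adra1b (ENSMUSG00000050541, chromosome 11, 43774606 to 43901210, minus strand) encodes the alpha-1B receptor. It was at 1.51, 1.6, 1.07, 1.88 and 1.40 FPKM in sham replicates 1 to 5 and at 1.88, 1.93, 1.95, 2.19 and 0.953 FPKM in IPF replicates 1 to 5. The groups overlapped, with 3 IPF samples above all sham samples and 1, replicate 5, below all of them. The log2 fold change was 0.21 (standard error 0.22, 95% interval -0.26 to 0.69), and its size rested on single samples: it was 0.41 without IPF replicate 5, 0.13 without IPF replicate 4 and 0.11 without sham replicate 3.

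In the make-up of the alpha-1 class, the shares of Adra1a and Adra1d did not overlap between the groups, which restates the levels above. Adra1a made up 49.9% to 60.2% of the summed alpha-1 FPKM in the IPF samples and 29.7% to 35.6% in the sham samples. Adra1d made up 17.1% to 30.8% in the IPF and 37.2% to 51.0% in the sham samples. The share of Adra1b overlapped, at 12.0% to 24.1% and 18.7% to 29.5%. In each of the 5 IPF samples Adra1a exceeded Adra1d, by 1.85 to 3.52 times, and in 0 of the 5 sham samples did it do so, where the ratio was 0.594 to 0.894. The summed alpha-1 level was 8.72 ± 0.972 FPKM in IPF and 6.46 ± 0.566 FPKM in sham samples (SD, n = 5 each), with no overlap.

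**Figure D2:**
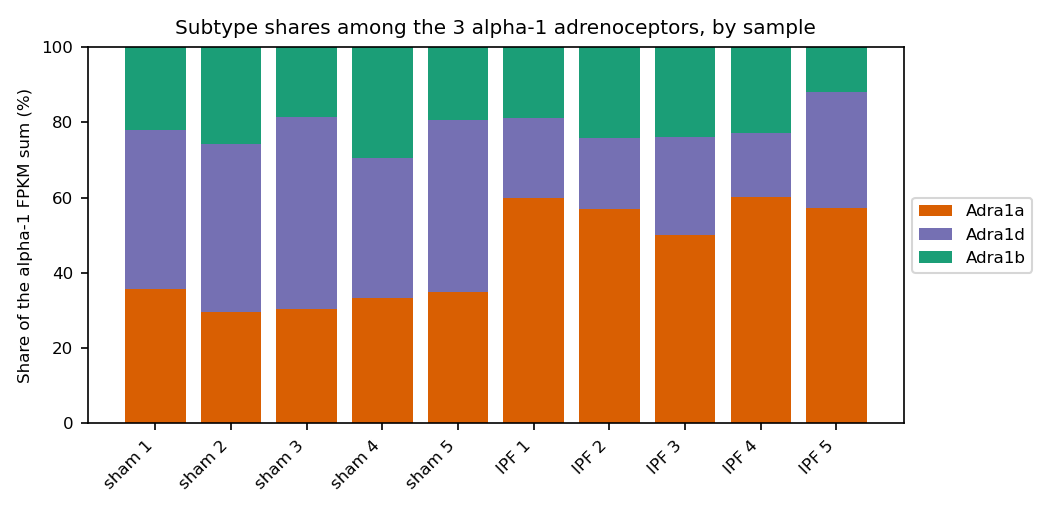
Share of each subtype in the summed FPKM of Adra1a, Adra1d and Adra1b (vertical axis, percent), 1 bar per sample. Adra1a takes at least 49.9% of every IPF bar and at most 35.6% of every sham bar, while Adra1d is the largest part of every sham bar.

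Adrb3 (ENSMUSG00000031489, chromosome 8, 27225776 to 27250616, minus strand) encodes the beta-3 receptor. Sham replicates 1 to 5 were at 3.09, 3.34, 2.45, 2.53 and 2.35 FPKM. IPF replicates 1 to 5 were at 5.97, 6.93, 5.77, 5.33 and 4.17 FPKM. The groups did not overlap, and IPF replicate 5 came closest to the sham range. The means were 5.63 ± 1.01 FPKM (SD, n = 5) and 2.75 ± 0.435 FPKM (SD, n = 5), a ratio of 2.05 and a log2 fold change of 1.00 (standard error 0.14). The value stands at the fold limit of 1: it was above 1 in 10 of 18 other settings, and below 1 without IPF replicate 1, 2 or 3, without sham replicate 3, 4 or 5, with median-of-ratios scaling and with a pseudocount of 1, in a range of 0.82 to 1.15. Without IPF replicate 5 it was 1.10, and without both that sample and sham replicate 1 it was 1.15.
Of 7 adipocyte markers 4 were tested, with a median log2 fold change of 1.06, and 0 were past the adjusted p limit (limma). Ucp1 and Adipoq reached the filter of 0.1 FPKM only through the IPF group, with sham means of 0.0374 and 0.0345 FPKM. The median lies between their fold changes of 1.39 and 0.73, so it is partly set by the filter and nothing is read from it. The summed level of the 7 markers was 4.34 to 13.4 FPKM in the IPF and 4.70 to 7.62 FPKM in the sham group. Cidec, a lipid droplet gene, was at 3.91 to 6.33 FPKM in the IPF and 4.37 to 7.60 FPKM in the sham samples. The other markers were near 0 in sham samples and higher in some IPF samples. Ucp1, the uncoupling protein of brown fat, reached 2.21 FPKM in IPF replicate 4, with 4 of 5 IPF samples above the highest sham value of 0.0761 FPKM (limma adjusted p = 0.278). Ucp1 held only 0 to 2 reads per sham sample and 1 to 66 per IPF sample, with an IPF median of 4. For Cfd these were 0 to 5 and 1 to 127 reads, with an IPF median of 3, and for Adipoq 0 to 2 and 0 to 23 reads. Cfd, which encodes adipsin, reached 7.29 FPKM in IPF replicate 3 and made up most of the sum there, against at most 0.338 FPKM in a sham sample (limma adjusted p = 0.413), and Adipoq, the adiponectin gene, reached 0.881 FPKM in the same sample against at most 0.0870 FPKM (limma adjusted p = 0.551). The part of these cells in the Adrb3 level was not tested. The sum was highest in IPF replicate 3, at 13.4 FPKM, and lowest in IPF replicate 2, at 4.34 FPKM. The antisense gene Gm45470 lies within the span of Adrb3 over 11647 bases and held 45 to 102 reads per IPF sample and 45 to 85 per sham sample, where Adrb3 held 249 to 390 and 121 to 202. Whether strand was used in counting is not given in the sources used here, so reads of the overlap may belong to either gene.

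For Adrb1 the groups overlapped. Sham replicates 1 to 5 were at 35.5, 34.3, 32.1, 33.9 and 32.9 FPKM, and IPF replicates 1 to 5 at 39.6, 30.8, 30.7, 30.6 and 31.9 FPKM. Thus 4 IPF samples lay below all sham samples and 1 above all of them. The log2 fold change was -0.05 (standard error 0.07, 95% interval -0.21 to 0.11), on 1249 to 1678 reads per sample, and without IPF replicate 1 it was -0.12. Adrb1 exceeded Adrb3 by 10.3 to 14 times in the sham and by 4.44 to 7.66 times in the IPF samples. Its share of the summed FPKM of the 8 genes was 77.2% to 79.3% in the sham and 66.7% to 72.1% in the IPF samples.

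The alpha-2 receptors were near the lower limit of the libraries. Adra2a (ENSMUSG00000033717, chromosome 19, 54045182 to 54048982, plus strand) held 4 to 15 reads per sham sample and 7 to 19 per IPF sample, at 0.132 ± 0.0677 and 0.196 ± 0.0693 FPKM (SD, n = 5 each). The groups overlapped, and its log2 fold change was 0.37 with a 95% interval of -0.28 to 1.01. That size depended on the setting, at 0.08 with a pseudocount of 1, 0.60 with limma voom on recovered reads and 0.61 with a pseudocount of 0.01. Adra2b (ENSMUSG00000058620, chromosome 2, 127363208 to 127367221, plus strand) held 1 to 5 reads per sham and 3 to 11 per IPF sample, and 3 IPF samples lay above all sham samples. Adra2c (ENSMUSG00000045318, chromosome 5, 35278319 to 35281763, plus strand) held 0 to 4 reads per sham and 1 to 3 per IPF sample, so that no fold is given. Adra2b was at 0.105 ± 0.0487 FPKM in IPF and 0.0577 ± 0.0253 FPKM in sham samples (SD, n = 5 each), and its groups overlapped. In the fit with no filter on low values the log2 fold change of Adra2b was 0.36, and neither Adra2b nor Adra2c was called. With so few reads the precision is low, and a count of 0 allows up to 3 reads. Together the 3 alpha-2 genes made up 0.223% to 0.948% of the summed FPKM of the 8 genes.

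The spread within groups was set beside the spread that counting alone would give. Adrb1 varied by 3.85% (SD over mean) in the sham group, where its reads alone give 2.69%, and by 11.8% in the IPF group, where they give 2.64%. Adra1a varied by 16.3% and 16.9% and Adrb3 by 15.8% and 17.9% in the sham and IPF groups, against 5.73% and 3.61%, and 8.06% and 5.46%, from counting. Adra1d varied by 11.5% in the sham group, close to the 10.6% from its reads, and by 19.2% in the IPF group, above the 12.3% from its reads. For Adra2b and Adra2c the counting part reached 36.8% to 84.5%, so their sample values say little about the mice.

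**Figure D3:**
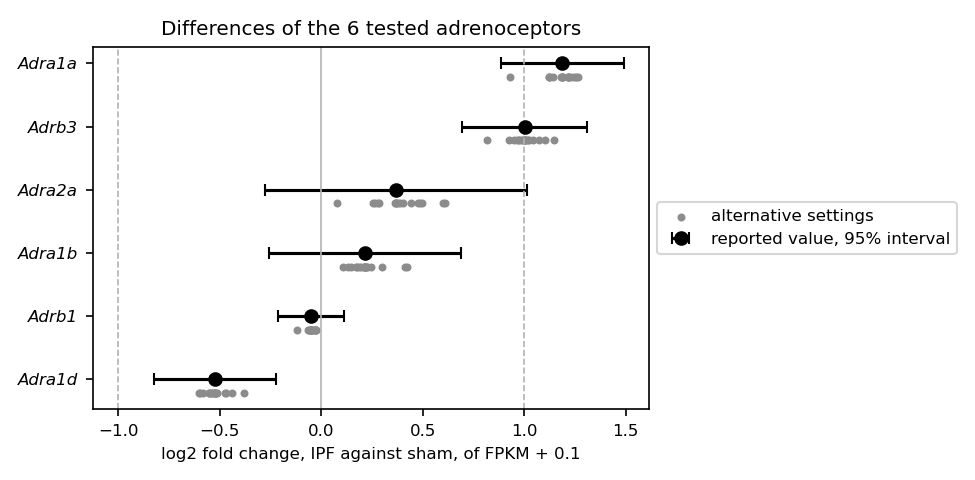
Log2 fold change, IPF against sham, of log2(FPKM + 0.1) for the 6 tested receptors (black, with 95% interval) and under the other settings (grey; those with another pseudocount are on their own scale). Dashed lines mark a log2 fold change of 1 in either direction; Adra1a lies above it at 1.19, Adrb3 on it at 1.00, and Adra1d at -0.52.

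The genes most alike to each receptor across the 10 samples were sought among 12068 protein-coding genes with a mean of at least 1 FPKM, after each group mean was taken away. The measure was Pearson's r of log2(FPKM + 0.1), given as a description without a test; the samples share their libraries and depth with both genes, and the best of so many genes will be high. For Adra1a these were Elmo2 (r = 0.96), Il16 (r = 0.96) and Fn1 (r = 0.95). Adrb3 was followed most closely by Mrps9 (r = 0.96), Tmem44 (r = 0.94) and Plekhd1 (r = 0.92). Adra1d had Cdc42bpg (r = 0.97), Fyb (r = 0.94) and Adnp2 (r = 0.93), and Adra1b had Insyn1 (r = 0.97), Hsph1 (r = 0.95) and Bcl3 (r = 0.95). Adrb1 was matched by Tcof1 (r = 0.94), Gm9821 (r = 0.93) and Rhot2 (r = 0.91). By rank (Spearman's rho) these stood at 0.81, 0.77 and 0.75, and IPF replicate 1 was far above the rest in Adrb1. Adra2a was matched by Gm14403 (r = 0.92), Numbl (r = 0.92) and Arsa (r = 0.92). No gene was named for more than 1 receptor.
Each of the 6 tested receptors was set in the same way beside the mean of the tested genes in each of the 14 marker lists, again over 10 samples that share their libraries and without a test. The values furthest from 0 were those with the endothelial markers, at r = -0.79 for Adrb3, 0.79 for Adra1d and -0.73 for Adra1b, and that of Adra1b with the clock genes, at r = -0.76. Adra1d stood at r = 0.60 with the clock genes. IPF replicate 5 had the highest endothelial sum of all samples, at 1342 FPKM, and the highest clock sum of its group, at 171 FPKM. Within the IPF group it was also lowest in Adrb3 and Adra1b and highest in Adra1d. These correlations may therefore rest largely on that sample, and they were not computed without it. Adra1a stood at r = -0.69 with the smooth muscle markers, and Adrb3 at r = 0.02 with the adipocyte markers. The summed endothelial level was 1130 to 1342 FPKM in the IPF and 1147 to 1217 FPKM in the sham group, and the part of these cells in the receptor levels was not tested.

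Genes around the receptors were read from 6 lists written from general knowledge, 88 genes in all, of which 84 were tested. Past the limma limit of 0.05 were 14 of these, or 16.7%, with 7 higher and 7 lower in the IPF group, against 5.85% of all genes tested. The median log2 fold change of the 84 genes was 0.02. Nothing is read from these shares, since the lists were chosen with earlier results of these data known. Genes named for their adjusted p were picked on these same values, so groups that stand apart among them add nothing further. Over all genes tested, the groups did not overlap for 7.29%, 4.52% above and 2.77% below.
Genes of catecholamine synthesis, transport and breakdown come first. Slc22a3, an organic cation transporter that takes up catecholamines outside nerves, rose from 1.49 ± 0.210 to 2.76 ± 0.638 FPKM (SD, n = 5 each; limma adjusted p = 0.0178 at a log2 difference of 0.82), and only 1 of 5 IPF samples reached into the sham range. Maoa and Maob, the monoamine oxidases that degrade them, rose by 0.41 (limma adjusted p = 0.0198) and 0.30 (limma adjusted p = 0.0356), with all 5 IPF samples above all sham samples for both. These were 3 of 11 tested genes, none fell past the limit, and the list's median was 0.04. When single samples were dropped in turn, Maob kept its place past the limit in 2 of 10 fits and Maoa in 8 of 10. Sult1a1, a sulfotransferase with a high level, was at 36.5 ± 15.7 FPKM in the IPF group against 52.7 ± 1.81 FPKM in the sham group (SD, n = 5 each; limma adjusted p = 0.104). IPF replicate 5 decided that call: the log2 fold change was -0.61 with it and -0.84 without it (limma adjusted p = 3.4e-05), and -0.84 when sham replicate 1 was left out as well (limma adjusted p = 0.00011). With voom on the recovered reads the adjusted p was 0.0380. Th, the first enzyme of catecholamine synthesis, had 1 read in 1 sham sample and none elsewhere, and Dbh, which makes noradrenaline, had at most 6 reads. The noradrenaline transporter Slc6a2 was at 18 to 35.4 FPKM in the IPF and 26.7 to 37.6 FPKM in the sham group (limma adjusted p = 0.0928). Of 7 sympathetic nerve markers 3 were tested and 0 were past the limit, Npy was at 0 in all samples, and the list's sum was mostly that of Slc6a2. That sum was 47.6 FPKM in IPF replicate 5 and 33.3 to 35.9 FPKM in the other IPF samples.

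Of 11 G protein alpha subunits 1 (9.09%) rose: Gna14, of the Gq class, from 6.43 ± 0.302 to 8.84 ± 1.21 FPKM (SD, n = 5 each; limma adjusted p = 0.0135 at a log2 difference of 0.44). Gnai2 and Gnai3, of the Gi class, had the highest levels and differed by 0.04 and 0.02 (log2; limma adjusted p = 0.760 and 0.906); the sign for Gnai3 turned when sham replicate 1 or IPF replicate 5 was left out.
Among 13 receptor kinases, arrestins and RGS proteins, which switch the receptors and G proteins off, 1 (7.69%) passed the limit: Grk5 rose from 28.6 ± 1.90 to 36.8 ± 2.49 FPKM (SD, n = 5 each; limma adjusted p = 0.00873 at a log2 difference of 0.36), with no overlap between the groups. Arrb1, the arrestin with the highest level of the list, was at 40.8 ± 1.47 FPKM in the IPF and 37.8 ± 2.56 FPKM in the sham group (SD, n = 5 each; limma adjusted p = 0.307).
Of 13 effectors of the alpha-1 receptors (phospholipase C, IP3 receptors, protein kinase C and TRPC channels) 0 were past the adjusted p limit in limma, and their median log2 fold change was 0.12. Plcb3 and Prkcd, the highest of them, had differences of 0.15 (limma adjusted p = 0.197) and 0.17 (limma adjusted p = 0.105). Without sham replicate 1 and IPF replicate 5, Prkcd passed at 0.22 (limma adjusted p = 0.0399).
Of 24 effectors of the beta and alpha-2 receptors 3 (12.5%) were past the limit. The adenylyl cyclase Adcy3 rose from 3.16 ± 0.175 to 4.52 ± 0.510 FPKM (SD, n = 5 each; limma adjusted p = 0.00800 at a log2 difference of 0.50). A second cyclase, Adcy2, fell from 12.6 ± 1.03 to 9.85 ± 0.672 FPKM (SD, n = 5 each; limma adjusted p = 0.0153 at a log2 difference of -0.35), and Rapgef4, the cyclic AMP sensor Epac2, fell by 0.35 (log2; limma adjusted p = 0.0311). In all 3 the groups did not overlap, but Rapgef4 was outside the limit in 6 of 10 fits with single samples dropped in turn. The subunits of protein kinase A with the highest levels, Prkar1a and Prkaca, differed by 0.06 and 0.08 (log2; limma adjusted p = 0.609 and 0.429).

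Of 15 genes that cyclic AMP can induce, 6 (40.0%) passed the limit, of which 5 fell and 1 rose, and the list's median log2 fold change was -0.26. Per1, which is also a clock gene, fell from 41.0 ± 5.21 to 13.3 ± 7.68 FPKM (SD, n = 5 each; limma adjusted p = 0.00574 at a log2 difference of -1.77). Nr4a3, a nuclear receptor induced by many stimuli, fell from 2.37 ± 0.481 to 1.04 ± 0.344 FPKM (SD, n = 5 each; limma adjusted p = 0.00940 at a log2 difference of -1.14), and Nr4a2 fell by 0.59 (limma adjusted p = 0.00415). Sik1, a kinase that feeds back on cyclic AMP signalling, fell from 21.2 ± 2.75 to 14.3 ± 0.630 FPKM (SD, n = 5 each; limma adjusted p = 0.00296). In these 4 genes every IPF sample lay below every sham sample, against 2.77% of all genes tested. They were named for the smallest adjusted p of the list, which favours such a separation. Dusp1, a phosphatase and the gene of the list with the highest level, was at 65.5 ± 22.4 FPKM in the IPF and 75.4 ± 8.96 FPKM in the sham group (SD, n = 5 each; limma adjusted p = 0.497). Clock genes outside this list moved in the same samples, as given above, and their part in these values was not tested.

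**Figure D4:**
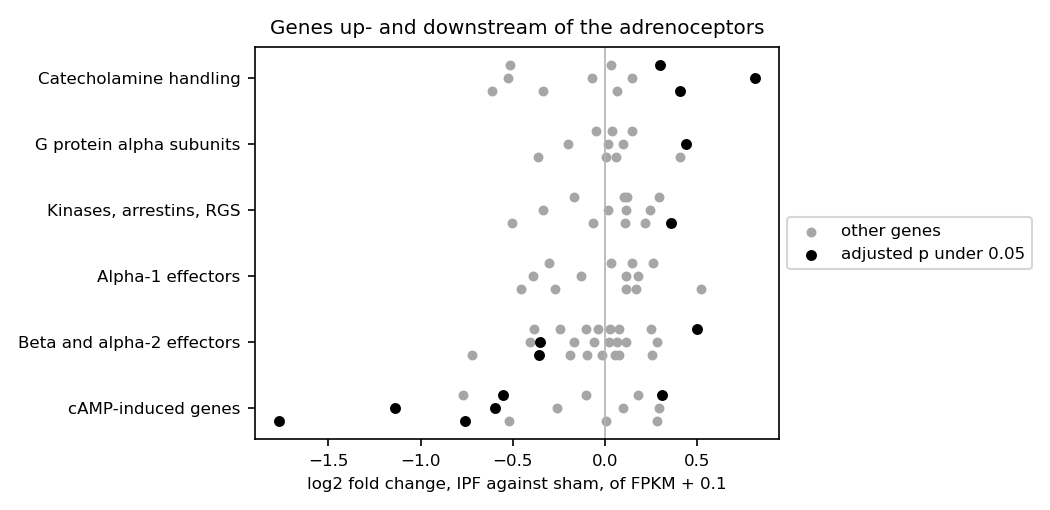
Log2 fold change, IPF against sham, of log2(FPKM + 0.1) for the 84 tested genes of the 6 lists, 1 point per gene, black at a limma adjusted p under 0.05; a gene of 2 lists is drawn in both. The 2 points below -1 are Per1 at -1.77 and Nr4a3 at -1.14, and no black point stands in the row of the alpha-1 effectors.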

How the data were processed

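RNA was taken from whole lung of 10 mice, 5 IPF and 5 sham. Per its methods, the study used Fastp for trimming, HISAT2 for alignment and StringTie for quantification. The deposited values are FPKM. The methods name GRCm39, but the gene positions are those of GRCm38, since the last gene of chromosome 1 ends at 195323493; the submitters' processing notes name GRCm38, mm10 and hg38, and Bowtie 0.12.2. Multiplied by gene length and divided by 1 step per sample, estimated from the lowest values, 100% of the FPKM values fell on whole reads (tolerance 0.01), and these reads are quoted; their total need not equal the total the FPKM were scaled to.

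Groups were compared with limma 3.58.1 in R 4.3.3 (empirical Bayes with trend) on log2(FPKM + 0.1), without covariates, where the mean reached 0.1 FPKM, with Benjamini-Hochberg adjustment; the method was tested on simulated data. Calls used the study's limits. DESeq2, which the authors used, was not run here. p-values measure the spread between these mice. Tables were made in Python 3.11.15 with pandas 2.3.3.

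The members and lists were chosen with earlier results of these data known. Named genes are the 8 receptors; in each pathway list up to 4 genes with the smallest adjusted p under 0.05 and the 2 with the highest level; the 3 genes most alike to each receptor; and marker genes beside them; 1 gene that the rule names is not reported here. Th, Dbh, Slc6a2 and the clock and sex-linked genes were named from these lists after their values were seen. Alternatives were pseudocounts of 1 and 0.01, no filter, a mean of at least 1 FPKM, median-of-ratios scaling, limma voom on recovered reads, the replicate number as a block, each sample left out, and, chosen after seeing the data, sham replicate 1 and IPF replicate 5 both left out.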

Additional observations from a re-analysis of the deposited data

Results flagged for a closer look

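Each receptor was examined in each group of 5 for a sample far from the others, by the gap to its nearest neighbour as a share of the group's range (above 0.71), and 2 of 16 groups had one, where chance flags about 1 in 20. Adra1b was at 0.953 FPKM in IPF replicate 5, the lowest of all 10 samples, with a gap of 0.746 of the range. Adrb1 was at 39.6 FPKM in IPF replicate 1, the highest of all 10 samples, with a gap of 0.852 of the range.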

How the results depend on the processing

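The 233 genes called became 154 with a mean of at least 1 FPKM, 74 with a pseudocount of 1 and 1196 at the adjusted p limit alone, and 171 to 299 when each sample was left out. The 2 receptors called became 1 with median-of-ratios scaling, 0 with a pseudocount of 1, and 1 to 2 when each sample was left out; on the narrower scale of a pseudocount of 1, Adra1a and Adrb3 stood at 0.93 and 0.82. The 14 pathway genes past the adjusted p limit became 2 when the fold limit was added and 9 to 20 when each sample was left out, with 9 without IPF replicate 4 and 9 without sham replicate 3. Without both sham replicate 1 and IPF replicate 5, chosen after seeing the data, 265 genes, 2 receptors and 21 pathway genes passed. The number of neighbouring receptor pairs ordered alike in all samples rose from 2 to 4 on reads scaled to library size without length scaling, and was 2 whichever sample was left out. Gnai3, at 0.02, changed sign to -0.0393 without both sham replicate 1 and IPF replicate 5, to -0.0182 without IPF replicate 5 and to -0.0016 without sham replicate 1, in a range of -0.0182 to 0.0439 when each sample was left out. The cause of these shifts was not tested.

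Samples of the 2 groups share replicate numbers, but the correlation of same-numbered samples' deviations was 0.10 at most and -0.02 at least, and 3 of 5 IPF samples correlated best with their own number, so the numbers were not taken to pair the mice. With the replicate number as a block, 202 genes, 2 receptors and 13 pathway genes passed, and Rapgef4 moved outside the limit (limma adjusted p = 0.0658). Depth limits the alpha-2 receptors most.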

Other observations

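Markers of the other lung cell types were read for the same samples. Of 8 endothelial, 6 alveolar type 1, 6 alveolar type 2, 6 ciliated airway and 5 macrophage markers 0 were past the adjusted p limit in limma, at median log2 fold changes of 0.15, -0.14, 0.02, -0.29 and 0.15. Of 7 pericyte markers Cspg4 was lower (log2 fold change -0.43, limma adjusted p = 0.0173), and of 6 fibroblast markers Pdgfra was higher (0.35, limma adjusted p = 0.0212). Among the lymphocyte markers, of which 4 of 7 passed, the largest differences that passed were in Ms4a1 (log2 fold change 1.19, limma adjusted p = 0.00336) and Cd79a (1.02, limma adjusted p = 0.00591), both of B cells.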
